A study of Mus musculus with 6 samples.

Results

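Pde4b, Rtn4 and Cdc42 are genes whose transcripts did not keep the same proportions in mouse cortex 24 h after traumatic brain injury (TBI). The 3 genes were picked from 56826 gene rows with a test of isoform usage on these same libraries in view, and all 12 of their transcript rows, of 64529 in all, are described here. Pde4b and Rtn4 have 5 rows each and Cdc42 has 2. RNA was sequenced from the cortex bordering the injury at 24 h (TBI, 3 libraries) and from normal cortex (control, 3 libraries), both from wild-type C57BL/6 mice. The labels name neither the way the injury was made, nor a sham operation in the controls, nor the age of the mice. They do not say whether each library came from a separate animal, so p-values measure the spread between these libraries, which may be partly technical. Total counts over the gene rows were 68808787 to 72169720 in TBI libraries and 67252519 to 83929814 in control libraries. Because the TBI contrast chose the 3 genes, their differences are given as values and standard errors with no test.

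The 3 genes act in signalling and in the shape of neurons and glia. Pde4b encodes a phosphodiesterase that breaks down cyclic AMP (cAMP). Its long forms carry a pair of upstream conserved regions through which protein kinase A and partner proteins regulate the enzyme, while short forms lack the first of these regions and start from internal promoters. Rtn4 encodes the Nogo proteins, membrane proteins of the endoplasmic reticulum that share a reticulon domain encoded by the 3′ exons. Nogo-A, present in oligodendrocytes and neurons, inhibits neurite growth in the injured central nervous system. Nogo-B lacks the long exon that is specific to Nogo-A, and Nogo-C starts at a promoter of its own. Cdc42 encodes a small GTPase that directs actin assembly, filopodia and cell polarity. It has alternative last exons, one used in most tissues and one used mainly in brain, which give the protein different C-terminal ends and different lipid anchors.

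Transcript rows of a gene share reads. A read in an exon that several transcripts hold was counted in the row of each of them, so rows of 1 gene resemble each other more than their own exons do. The row lengths implied by the deposited RPKM values (reads per kilobase and per 1000000 counted reads) came out whole to within 0.015 bases, and the gene row equalled the union of the exons. Subtracting rows from each other therefore gave the reads of single exons or exon groups, in whole numbers in 6 of 6 libraries for Rtn4 and for Pde4b. A read that reaches into a shared exon cannot be given to 1 segment, which can lower short segments per base in both groups alike. These segment reads are given below as reads, and as RPM, reads per 1000000 of the library size scaled by TMM (trimmed mean of M values). Fold changes are TBI over control on the log2 scale throughout, and means carry the SD over 3 libraries per group.

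By the deposited RPKM, 5 of the 12 transcript rows were higher in all 3 TBI libraries than in any control library, 3 were lower in all 3, and 4 overlapped. Over all 49090 transcript rows tested, 25.3% were higher without overlap and 11.2% were lower without overlap. The contrast chose these genes, so the counts are a description. The 5 rows that were higher were Cdc42 NM_009861 and the 4 Pde4b rows with the catalytic exons, and the 3 that were lower were the Rtn4 rows of Nogo-B and Nogo-C. The Nogo-B rows hold no exon of their own, so they do not give the level of Nogo-B.

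**Figure D1:**
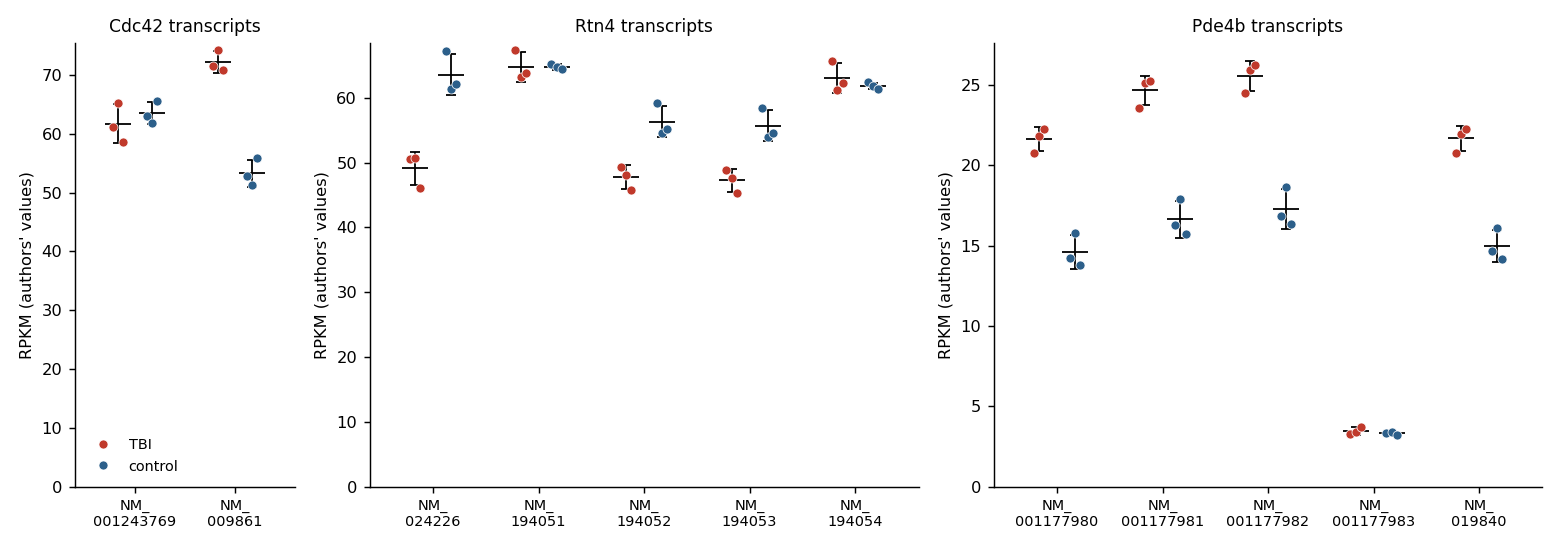
RPKM as the authors deposited it for the 12 transcript rows of Cdc42, Rtn4 and Pde4b, with 1 panel per gene, 1 point per library, TBI left of control, and bars at the mean ± SD of each group. The groups lie apart for Cdc42 NM_009861 (means of 72.2 in TBI and 53.3 in control) and Rtn4 NM_024226 (49.2 in TBI and 63.6 in control), while Pde4b NM_001177983 has means of 3.46 in TBI and 3.32 in control.

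In Cdc42 the last exon of the widely expressed form was higher in TBI and the last exon of the brain form was lower. Cdc42 lies on the minus strand of chromosome 4 (137319696 to 137357759, mm10). Its transcripts NM_009861 and NM_001243769 each encode 191 codons and differ in the last exon, the brain exon of NM_001243769 lying upstream of the exon of NM_009861. The coding parts of the exons are 87 bases each and are identical at 57 positions, or 65.5%. They are shown because the groups differ in the choice between them, with the differing positions in capitals, read 5′ to 3′ on the minus strand from GENCODE M21 on GRCm38. The exon of NM_009861 lies at chr4:137321106-137321192 and the brain exon of NM_001243769 at chr4:137322533-137322619.
NM_009861 last coding exon: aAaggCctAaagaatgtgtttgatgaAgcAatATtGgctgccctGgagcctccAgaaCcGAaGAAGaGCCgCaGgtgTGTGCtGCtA
NM_001243769 last coding exon: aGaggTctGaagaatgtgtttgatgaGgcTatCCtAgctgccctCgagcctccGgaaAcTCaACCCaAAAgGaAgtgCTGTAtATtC

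The gene row of Cdc42 held 85.4, 88.5 and 82.4 RPKM in TBI libraries, against 71.0, 69.1 and 74.2 RPKM in control libraries, a log2 fold change of 0.18 ± 0.07 (SE, edgeR fit). The transcript row NM_009861 held 71.6, 74.3 and 70.9 RPKM in TBI libraries, against 52.8, 51.3 and 55.8 RPKM in control libraries (log2 fold change 0.34 ± 0.07, SE). The row NM_001243769 held 61.2, 65.2 and 58.7 RPKM in TBI libraries, against 63.0, 61.9 and 65.7 RPKM in control libraries (log2 fold change -0.14 ± 0.07, SE). NM_009861 separated the groups and NM_001243769 did not. NM_009861 made up 54.0 ± 0.723% of the summed RPKM of both rows in TBI and 45.6 ± 0.318% in control.

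Reads of the last exons alone differed in opposite directions. The last exon of NM_009861, of 1497 bases with its untranslated part, had 9573, 9848 and 9023 reads in TBI libraries, against 5819, 6277 and 7700 reads in control libraries. Scaled, these were 131, 133 and 127 RPM in TBI libraries and 90.7, 84.9 and 95.0 RPM in control libraries, a log2 fold of the means of 0.53. All 3 TBI libraries lay above all 3 control libraries. The last exon of NM_001243769, of 857 bases, had 3789, 4023 and 3252 reads in TBI libraries, against 4180, 4628 and 5369 reads in control libraries. Scaled, these were 51.9, 54.3 and 45.9 RPM in TBI libraries and 65.1, 62.6 and 66.2 RPM in control libraries, a log2 fold of the means of -0.35. Here every TBI library lay below every control library. The 650 bases of exons that both transcripts share had 68.6 ± 2.73 RPM in TBI and 65.9 ± 4.84 RPM in control, and the groups overlapped (log2 fold of the means 0.06).

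**Figure D2:**
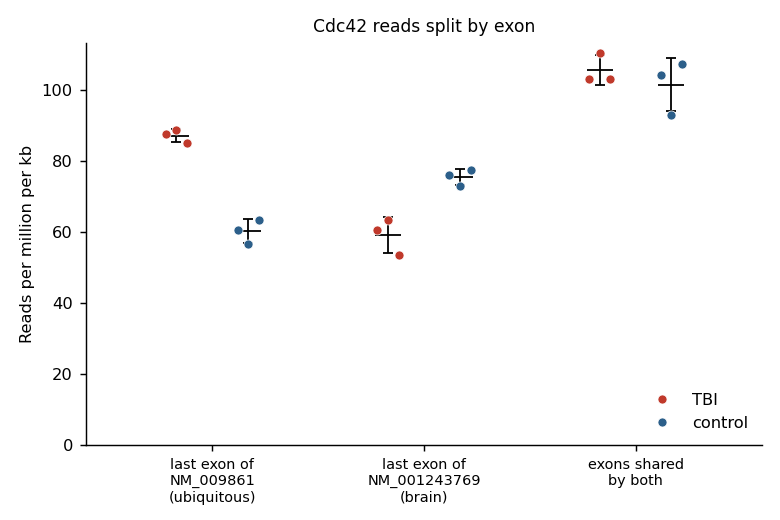
RPM per kb of each alternative last exon of Cdc42 and of the exons that both transcripts share, with 1 point per library, TBI left of control, and bars at the mean ± SD of each group. The last exon of NM_009861 is higher in TBI (means of 87.1 in TBI and 60.3 in control), that of NM_001243769 is lower (59.1 in TBI and 75.4 in control), and the shared exons overlap (105.5 in TBI and 101.4 in control).

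Per base, the last exon of Cdc42 with more reads was not the same in both groups. In TBI the last exon of NM_009861 had 87.1 ± 1.93 RPM per kb and that of NM_001243769 had 59.1 ± 5.07 RPM per kb. In control the last exon of NM_009861 had 60.3 ± 3.38 RPM per kb and that of NM_001243769 had 75.4 ± 2.17 RPM per kb. The exon of NM_009861 thus held 59.1, 58.4 and 61.4% of the last-exon reads per base in TBI libraries, against 44.4, 43.7 and 45.1% in control libraries. The log2 ratio of the exons was 0.56 ± 0.09 in TBI and -0.33 ± 0.04 in control, a difference of 0.89. The same pair compared as whole transcript rows differed by 0.48, since both rows also hold the shared reads. Per kb, the last exons together exceeded the shared exons, which stood at 105.5 RPM in TBI and 101.4 RPM in control. Coverage per base therefore differs between segments, and the last-exon levels do not rank the transcripts within a group. Only the difference of their ratio between groups is read here.

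In Rtn4 the first exon of Nogo-C and the 3′ exons shared by all forms were lower in TBI, while the first exon of Nogo-A and Nogo-B and the long exon of Nogo-A were higher. Rtn4 lies on the plus strand of chromosome 11 (29692898 to 29744414, mm10). NM_194054 encodes Nogo-A (1162 codons), NM_194051 a Nogo-A with another first exon (1046 codons), NM_194053 and NM_194052 encode Nogo-B with and without exon 2 (375 and 356 codons), and NM_024226 encodes Nogo-C (199 codons). Nogo-A and Nogo-B start at the first promoter, and Nogo-C starts about midway along the gene with a short coding exon (chr11:29718849-29718882, plus strand, GENCODE M21 on GRCm38), shown because it belongs to the Rtn4 row with the lowest fold change.
NM_024226 first coding exon: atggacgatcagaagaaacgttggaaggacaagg

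The start regions of Nogo-A and Nogo-B and of Nogo-C are shown beside each other because the reads of their first exons differed in opposite directions. Each runs from 250 bases before to 50 bases after the start site, from RefSeq on GRCm38.p6, at chr11:29692648-29692947 for Nogo-A and Nogo-B and at chr11:29718313-29718612 for Nogo-C, both on the plus strand. Capitals mark matches on either strand to the TATA box (TATAAA), the CCAAT motif (CCAAT), the cAMP response element (TGACGTCA), the AP-1 motif (TGANTCA) and the GC box (GGGCGG), motifs picked after the reads had been seen.
Nogo-A and Nogo-B promoter: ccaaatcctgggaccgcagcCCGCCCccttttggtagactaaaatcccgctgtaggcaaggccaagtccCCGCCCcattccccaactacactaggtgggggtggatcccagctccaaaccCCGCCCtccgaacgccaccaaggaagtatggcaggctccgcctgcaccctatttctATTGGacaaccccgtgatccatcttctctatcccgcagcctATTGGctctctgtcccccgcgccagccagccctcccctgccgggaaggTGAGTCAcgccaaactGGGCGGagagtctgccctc
Nogo-C promoter: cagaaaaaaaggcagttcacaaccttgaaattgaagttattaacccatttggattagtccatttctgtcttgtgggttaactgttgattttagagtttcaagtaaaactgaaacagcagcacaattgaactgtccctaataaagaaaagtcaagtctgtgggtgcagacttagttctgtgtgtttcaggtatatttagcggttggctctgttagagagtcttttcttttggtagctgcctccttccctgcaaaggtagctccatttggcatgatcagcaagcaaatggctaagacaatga

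The Nogo-A and Nogo-B window was 62.3% G and C with 15 CpG pairs, and the Nogo-C window was 39.7% G and C with 1 CpG pair, against medians of 52.7% and 7 over 32851 mouse promoters. The first window held 4 GC boxes, 2 CCAAT motifs and 1 AP-1 motif, none overlapping, and no TATA box or cAMP response element. The second held none of the 5 motifs. Of all promoters, 35.7% held a GC box, 37.4% a CCAAT motif, 7.81% the AP-1 motif, 13.6% a TATA box and 1.79% a cAMP response element. A match describes the letters only.

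The whole gene row of Rtn4 was level, at 82.5, 77.0 and 77.8 RPKM in TBI libraries, against 81.0, 78.7 and 78.7 RPKM in control libraries (log2 fold change -0.09 ± 0.07, SE). The Nogo-C row NM_024226 held 50.6, 50.7 and 46.2 RPKM in TBI libraries, against 67.2, 61.3 and 62.2 RPKM in control libraries (log2 fold change -0.47 ± 0.07, SE), with every TBI library below every control library. The Nogo-A row NM_194054 held 65.7, 61.3 and 62.4 RPKM in TBI libraries, against 62.4, 61.8 and 61.4 RPKM in control libraries (log2 fold change -0.07 ± 0.06, SE), and the groups overlapped. The sign of this fold change differs from the order of the RPKM means, since the fit scales libraries by TMM and RPKM by the column total. The Nogo-B rows NM_194053 and NM_194052 averaged 47.3 ± 1.78 and 47.8 ± 1.80 RPKM in TBI, against 55.7 ± 2.41 and 56.4 ± 2.44 RPKM in control, each with a log2 fold change of -0.33 ± 0.07 (SE). Most reads of these Nogo-B rows lie in the 3′ exons that all Rtn4 forms share. The row NM_194051 averaged 64.8 ± 2.29 RPKM in TBI and 64.8 ± 0.447 RPKM in control (log2 fold change -0.09 ± 0.06, SE).

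Once shared reads were subtracted, the first exon of Nogo-C had the lowest fold of any Rtn4 segment. It had 1038, 1155 and 883 reads in TBI libraries, against 1828, 1708 and 1925 reads in control libraries. These were 14.2, 15.6 and 12.5 RPM in TBI libraries and 28.5, 23.1 and 23.8 RPM in control libraries, so the TBI mean was 0.561 times the control mean (log2 -0.83). The groups lay well apart, with the highest TBI library below the lowest control library. The first exon of Nogo-A and Nogo-B had 2868, 2550 and 2759 reads in TBI libraries, against 1987, 2110 and 2335 reads in control libraries. These were 39.3, 34.4 and 38.9 RPM in TBI libraries and 31.0, 28.5 and 28.8 RPM in control libraries (log2 fold of the means 0.35), again without overlap but with TBI higher.

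The long exon 3, which is specific to Nogo-A and codes for a stretch that inhibits neurite growth, was also higher in TBI. It had 20621, 18687 and 19196 reads in TBI libraries, against 14563, 17148 and 18993 reads in control libraries. After scaling it stood at 282, 252 and 271 RPM in TBI libraries, against 227, 232 and 234 RPM in control libraries (log2 fold of the means 0.22), without overlap. Exon 2, which NM_194053 and both Nogo-A transcripts hold and NM_194052 lacks, had 69 to 80 reads in TBI and 66 to 78 in control. Its reads therefore do not give the split between the Nogo-B forms. The first exon of NM_194051 had 25 to 44 reads in TBI and 29 to 52 in control. In both of these segments the groups overlapped, and their low reads leave small changes undetectable.

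The first exons of Nogo-A and Nogo-B and of Nogo-C stood at 47.2 ± 3.39 and 44.0 ± 4.91 RPM per kb in TBI, against 37.0 ± 1.66 and 78.5 ± 9.17 RPM per kb in control. Their ratio, Nogo-A and Nogo-B over Nogo-C, was 1.11, 0.888 and 1.26 in TBI libraries, against 0.437, 0.497 and 0.488 in control libraries. In log2 this was 0.10 ± 0.25 in TBI and -1.08 ± 0.10 in control, a difference of 1.18. Per base, the first exon of Nogo-C thus held more reads than that of Nogo-A and Nogo-B in every control library. In TBI libraries these first exons were close to even. Exon 3, which only Nogo-A transcripts hold, stood at 97.9 RPM per kb in control, above either first exon. The first-exon levels therefore do not rank the starts within a group, and only the difference of their ratio between groups is read here. The log2 ratio of exon 3 to the first exon of Nogo-A and Nogo-B was 1.27 ± 0.04 in TBI and 1.40 ± 0.09 in control, a difference of -0.13. It ran from 1.23 to 1.30 in TBI libraries and from 1.31 to 1.46 in control libraries, so the groups did not overlap, though the nearest libraries were almost equal.

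**Figure D3:**
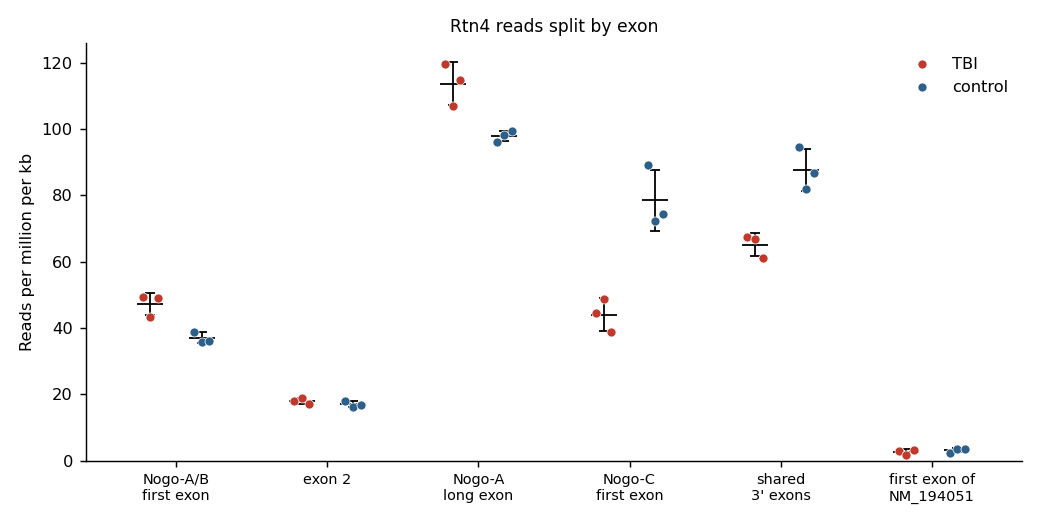
RPM per kb of each Rtn4 segment, with 1 point per library, TBI left of control, and bars at the mean ± SD of each group. The first exon of Nogo-A and Nogo-B and the long Nogo-A exon are higher in TBI, while the first exon of Nogo-C (means of 44.0 in TBI and 78.5 in control) and the shared 3′ exons (65.1 in TBI and 87.7 in control) are lower.

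The 3′ exons that all 5 Rtn4 transcripts share, which code for the reticulon domain and hold the 3′ untranslated part, were lower in TBI. They had 14550, 14592 and 12794 reads in TBI libraries, against 17897, 17867 and 20726 reads in control libraries. Scaled, these were 199, 197 and 180 RPM in TBI libraries and 279, 242 and 256 RPM in control libraries (log2 fold of the means -0.43), without overlap. The log2 ratio of exon 3 to the shared exons, per base, was 0.80 ± 0.12 in TBI and 0.16 ± 0.12 in control. Per kb, the shared exons stood at 65.1 RPM in TBI and 87.7 RPM in control. Exon 3, which only Nogo-A transcripts hold, stood above them, at 113.7 RPM in TBI and 97.9 RPM in control. The level of the shared exons per base therefore does not give the sum of all Rtn4 forms. Their lower reads in TBI are not read as a fall of every form.

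Other rows at the Rtn4 locus count some of the same reads. Clones fantom3_1110020G17 and fantom3_B930042E10, FANTOM3 cDNA rows at the 3′ end of Rtn4, had 119 ± 7.05 and 93.8 ± 6.82 RPM in TBI, against 162 ± 11.4 and 125.9 ± 9.32 RPM in control. Both were lower without overlap, with log2 folds of the means of -0.44 and -0.43. Eml6, a gene on the opposite strand whose end overlaps the last exon of Rtn4, had 33.1 ± 2.53 RPM in TBI and 42.1 ± 1.79 RPM in control. The strand setting of the counts is not given in the sources used here, so reads of Eml6 and of the Rtn4 last exon cannot be told apart. The 2 clones inside Rtn4 introns summed to 5.69 ± 1.04 RPM in TBI and 3.89 ± 0.416 RPM in control, and the part of intronic reads in the segment values was not tested.

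Pde4b reads were higher in TBI in the catalytic exons, and overlapped between the groups in the row of its truncated transcript, which starts in the 5′ part of the gene. Pde4b lies on the plus strand of chromosome 4 (102087538 to 102607262, mm10). NM_019840 encodes a long form of 721 codons in 15 exons, NM_001177980 a short form of 564 codons, and NM_001177981 and NM_001177982 encode forms of 503 and 484 codons with first exons of their own. NM_001177983 ends early, at 212 codons, and holds 5′ exons of the long form but no catalytic exon. Of its 1374 bases, 306 are a last exon of its own, and its first exon has 715 bases, against 454 in the long form. Its reads are therefore not those of the long form alone. These exon lengths are from GENCODE M21, whose exon ends can differ from those of the deposited rows. The first coding exon of NM_001177981 (chr4:102590154-102590201, plus strand, GENCODE M21 on GRCm38) is shown because it belongs to the row that gained the most share.
NM_001177981 first coding exon: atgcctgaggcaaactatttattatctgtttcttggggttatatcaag

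The gene row of Pde4b held 20.8, 21.9 and 22.3 RPKM in TBI libraries, against 14.8, 15.9 and 14.1 RPKM in control libraries (log2 fold change 0.46 ± 0.07, SE). NM_001177981 held 23.6, 25.1 and 25.3 RPKM in TBI libraries, against 16.3, 17.9 and 15.7 RPKM in control libraries (log2 fold change 0.48 ± 0.07, SE). NM_019840, NM_001177980 and NM_001177982 share its 3′ exons and had log2 fold changes of 0.44, 0.48 and 0.47, each ± 0.07 (SE). All 4 of these rows separated the groups. NM_001177983 held 3.26, 3.41 and 3.71 RPKM in TBI libraries, against 3.34, 3.41 and 3.20 RPKM in control libraries (log2 fold change -0.03 ± 0.11, SE), and the groups overlapped. It made up 3.57 ± 0.131% of the summed RPKM of the 5 rows in TBI and 4.97 ± 0.200% in control.

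The shared 3′ exons of Pde4b, which code for the catalytic domain and hold the 3′ untranslated part, were higher in TBI. They had 8022, 8566 and 8265 reads in TBI libraries, against 5262, 6335 and 6331 reads in control libraries. Scaled, these were 110, 116 and 117 RPM in TBI libraries and 82.0, 85.7 and 78.1 RPM in control libraries (log2 fold of the means 0.48), without overlap. The 5′ region, which is the row of NM_001177983, had 422, 445 and 461 reads in TBI libraries, against 412, 457 and 489 reads in control libraries. It stood at 6.10 ± 0.370 RPM in TBI and 6.21 ± 0.194 RPM in control, a log2 fold of -0.03, which became 0.05 when libraries were scaled by column total. The per-base ratio of 3′ to 5′ exons was 7.71, 7.81 and 7.27 in TBI libraries, against 5.18, 5.62 and 5.25 in control libraries, with log2 means of 2.92 ± 0.05 in TBI and 2.42 ± 0.06 in control.

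First exons of the shorter Pde4b forms were higher in TBI, at low read numbers. The first exon of NM_001177981 had 295, 370 and 306 reads in TBI libraries, against 217, 201 and 213 reads in control libraries. Its mean was 4.45 ± 0.492 RPM in TBI and 2.91 ± 0.411 RPM in control (log2 fold of the means 0.61), without overlap. The segment of NM_001177980 is its first exon, whose last 113 bases are also an exon of the long form, so reads of the long form fall in it. It had 210, 165 and 216 reads in TBI libraries, against 96, 139 and 120 reads in control libraries, and its mean RPM was 1.68 times as high in TBI as in control. The first exon of NM_001177982 had 2, 2 and 5 reads in TBI libraries and 0 in each control library, too few to set a level. The log2 ratio of the 3′ exons to the first exon of NM_001177981, per base, was 1.45 ± 0.13 in TBI and 1.59 ± 0.20 in control, with overlapping groups. Per kb, the first exon of NM_001177981 stood at 12.4 RPM in TBI and 8.10 in control, and the 5′ region at 4.44 in TBI and 4.52 in control.

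**Figure D4:**
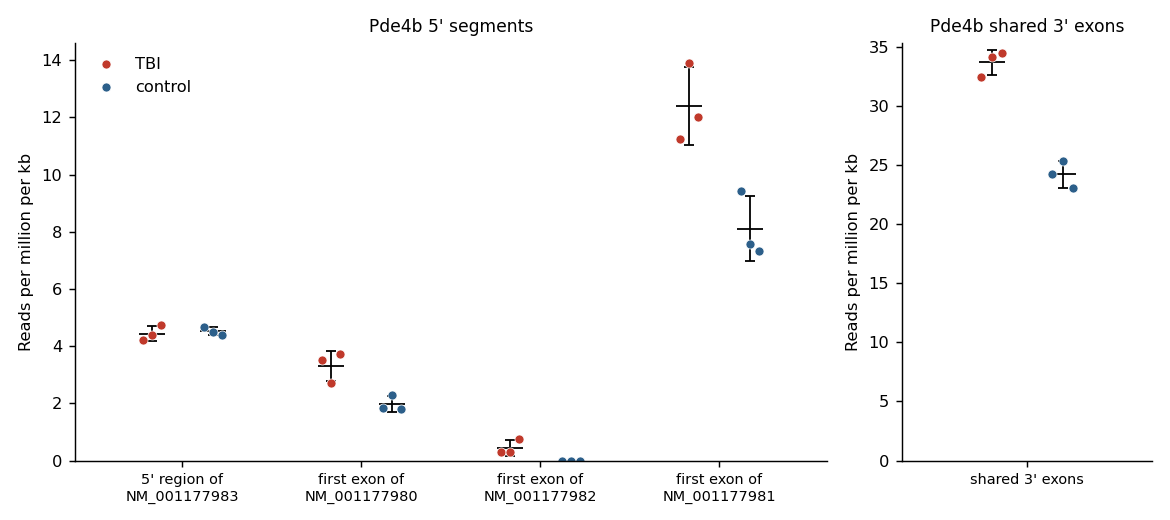
RPM per kb of the 5′ segments of Pde4b (left panel) and of its shared 3′ exons (right panel), with 1 point per library, TBI left of control, and bars at the mean ± SD of each group. The shared 3′ exons (means of 33.7 in TBI and 24.2 in control) and the first exons of NM_001177980 and NM_001177981 are higher in TBI, and the 5′ region (4.44 in TBI and 4.52 in control) overlaps.

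Rows of cDNA clones that lie in introns give intronic reads at some places in Pde4b, most of them far 5′ of the starts of the shorter forms. The 9 clones, some of which overlap each other, summed to 19.2 ± 4.33 RPM in TBI and 18.9 ± 3.58 RPM in control, and overlapped. The clone nearest those starts, fantom3_D130020D19, had 0.770 ± 0.280 RPM in TBI and 0.391 ± 0.139 RPM in control. The clone farthest 5′, fantom3_D230012M02, had 0.863 ± 0.323 RPM in TBI and 1.09 ± 0.380 RPM in control. Groups overlapped in each of these clones, and the sum does not give the level near the starts of the shorter forms. In Cdc42 the 2 intron clones summed to 3.05 ± 0.0469 RPM in TBI and 2.12 ± 0.279 RPM in control, against 130 RPM in TBI and 90.2 RPM in control for the last exon of NM_009861.

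**Figure D5:**
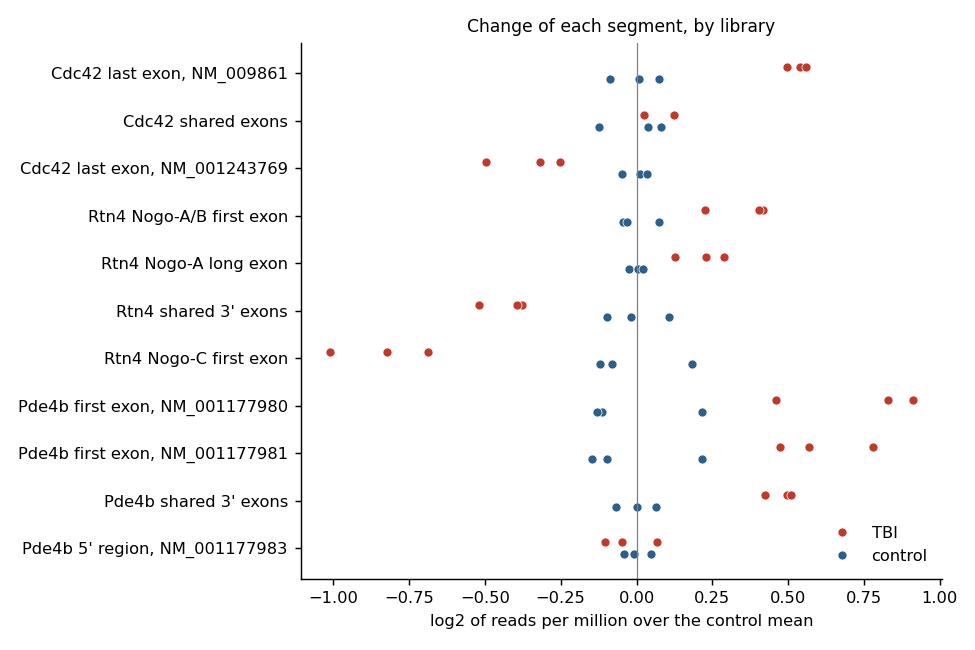
Log2 of RPM over the control mean for 11 segments of Cdc42, Rtn4 and Pde4b, genes chosen on this contrast, with 1 point per library, TBI points above control points and a line at 0 for the control mean; exon 2 of Rtn4 and the first exons of Rtn4 NM_194051 and Pde4b NM_001177982, with at most 80 reads in a library, are not drawn. The log2 fold of the means is lowest for the first exon of Nogo-C (-0.83) and highest for the first exon of Pde4b NM_001177980 (0.75). The latter segment also takes reads of the long form.

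By the measure that chose them, the 3 genes stood near the top of the series. Limma diffSplice on log2(RPKM + 1) called 5 of 3241 genes with several measured transcripts, or 0.154%. Pde4b, Cdc42 and Rtn4 ranked 3, 5 and 6 of 3241 by p. Pde4b and Cdc42 were among the 5 called and Rtn4 was not. With TBI replicate 1 or control replicate 2 left out 4 genes were called, and with any other library left out 3. Cdc42 and Rtn4 were outside the called genes in all 6 of these fits, and Pde4b was outside them without TBI replicate 2 and without control replicate 1. On counts, diffSpliceDGE called 3 genes, none of them a member, with Cdc42, Pde4b and Rtn4 at ranks 6, 7 and 8. With a replicate block, 6 genes were called and Cdc42, at rank 12, was not among them. The widest gap between log2 changes of transcripts of 1 gene was 0.51 in Pde4b, 0.48 in Cdc42 and 0.40 in Rtn4, against a median of 0.0068 over the 3241 genes. By this gap they ranked 9, 12 and 15. Rows of 1 gene share reads, so this median is not one of differences between single exons. Among 208 genes with 2 transcript rows and at least 50 reads of its own in each row and library, the ratio of exclusive reads did not overlap between groups in 30.3%. Cdc42 ranked 8 of 208 by the size of the log2 difference in this ratio, which had a median size of 0.18. These ranks restate the choice of the genes and support nothing by themselves.

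Of 11 paralogues of the 3 genes, 4 had several measured transcripts, Pde4a, Rtn1, Rtn2 and Rtn3. For isoform usage, limma diffSplice called 0 of these 4, with 0 at an unadjusted p under 0.05, and diffSpliceDGE called 0. They ranked 431 to 1597 of 3241. As whole genes, edgeR called 3 of the 11 paralogues higher and 3 lower in TBI. Over 42762 gene rows, 9.12% were called higher and 8.36% lower. Rtn1, the neuronal reticulon, fell to 70.9 ± 3.57 RPKM in TBI, against 89.8 ± 4.75 RPKM in control (edgeR log2 fold change -0.42, adjusted p = 0.00160). Rhoq, the Cdc42 relative also called TC10, had 13.8 ± 0.934 RPKM in TBI and 8.63 ± 0.363 RPKM in control (edgeR log2 fold change 0.60, adjusted p = 0.000216).

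For each gene the transcript that gained the most share was compared with 17559 RefSeq transcript rows over the 6 libraries, by Pearson's r of log2(RPKM + 1). The 6 points come from 2 groups and share library and depth, and no p is given. Closest to Cdc42 NM_009861 were Rpl19 (r = 0.9993), Cpt2 (0.9989) and Arrdc4 (0.9984), and 1528 rows had an r over 0.95. Closest to Pde4b NM_001177981 were Lactb2 (0.9986), Rps26 (0.9986) and Ssbp1 (0.9977), and 1079 rows had an r over 0.95. Closest to Rtn4 NM_194054 were Sstr2 (0.9935), Rab36 (0.9818) and Pi4ka (0.9806), and 17 rows had an r over 0.95. NM_194054 overlapped between the groups, and it and these closest rows were all highest in TBI replicate 1. Rpl19 and Rps26 encode ribosomal proteins, whose near-identical copies in the genome can share their reads.

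Other genes of cAMP signalling were more often lower than higher in TBI. Of 36 tested, edgeR called 4 higher and 10 lower, with a median log2 fold change of -0.18, against 0.0055 over all gene rows. Among all gene rows, 9.12% were called higher and 8.36% lower, so the number higher is near that background. Adcy8 and Adcy2, adenylyl cyclases that make cAMP, fell to 3.05 ± 0.400 and 16.1 ± 0.428 RPKM in TBI, against 4.90 ± 0.521 and 25.2 ± 3.19 RPKM in control (edgeR adjusted p = 0.000577 and 0.000297). Prkar2b, a regulatory subunit of protein kinase A, fell to 14.5 ± 2.16 RPKM in TBI, against 22.0 ± 3.47 RPKM in control (edgeR adjusted p = 0.00155). Adcy7, a cyclase of blood and immune cells, rose to 1.43 ± 0.0441 RPKM in TBI, against 0.835 ± 0.0958 RPKM in control (edgeR adjusted p = 0.00102).

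Of 20 tested genes of the Nogo receptors, their ligands and partners, and other reticulons and shapers of the endoplasmic reticulum, edgeR called 2 higher and 6 lower. Over all gene rows 9.12% were called higher and 8.36% lower, so the number higher is near that background. The median log2 fold change was -0.15. The 6 lower genes include Rtn1, Atl1 and Reep5, which act in the endoplasmic reticulum and are not Nogo receptors. The calls numbered 13 without control replicate 2 and 5 without control replicate 3. Rtn4r, the Nogo receptor, fell to 12.4 ± 1.30 RPKM in TBI, against 18.8 ± 2.04 RPKM in control (edgeR log2 fold change -0.69, adjusted p = 0.000810). Its signalling partner Lingo1 fell to 28.6 ± 7.25 RPKM in TBI, against 39.7 ± 4.50 RPKM in control (edgeR adjusted p = 0.0230). S1pr2, a sphingosine phosphate receptor that also binds Nogo-A, rose to 1.71 ± 0.264 RPKM in TBI, against 0.534 ± 0.0434 RPKM in control (edgeR log2 fold change 1.60, adjusted p = 2.92e-05). Lilrb3, an older symbol of Pirb, a receptor of myeloid cells that also binds Nogo in the mouse, rose to 1.55 ± 0.654 RPKM in TBI, against 0.0776 ± 0.0178 RPKM in control (edgeR adjusted p = 3.57e-06).

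Regulators and effectors of Cdc42 and its relatives were more often higher than lower. Of 48 tested, edgeR called 15 higher and 7 lower, with a median log2 fold change of 0.16, against 0.0055 over all gene rows. Among all gene rows, 9.12% were called higher and 8.36% lower. The share lower in this list was closer to that background than the share higher. The largest changes were in genes of blood and endothelial cells. Rhoj, a GTPase of endothelial cells, rose to 9.24 ± 1.08 RPKM in TBI, against 1.36 ± 0.0505 RPKM in control (edgeR adjusted p = 2.28e-08). Rac2, the GTPase of blood cells, rose to 1.37 ± 0.410 RPKM in TBI, against 0.232 ± 0.0563 RPKM in control (edgeR adjusted p = 2.09e-05). Vav1, a guanine nucleotide exchange factor of blood cells, and Arhgdib, a GDP dissociation inhibitor of blood cells, rose by 1.84 and 1.63 on the log2 scale (edgeR adjusted p = 7.82e-06 and 2.74e-06).

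Cell type markers also differed between the groups. In bulk cortex fewer cells of a type and less RNA per cell cannot be told apart. Neuron markers summed to 1276 to 1396 RPKM in TBI and 1569 to 1655 RPKM in control, with 4 of 8 called lower and 0 higher. Neutrophil markers summed to 36.1 to 105 RPKM in TBI and 1.31 to 3.36 RPKM in control, with 5 of 6 tested called higher, and microglia and macrophage markers to 69.3 to 84.0 RPKM in TBI and 49.2 to 51.8 RPKM in control, with 5 of 8 higher and 2 lower. Astrocyte markers summed to 520 to 570 RPKM in TBI and 400 to 427 RPKM in control (3 of 6 higher, 2 lower). Without Gfap, the intermediate filament gene that held 197 ± 21.6 RPKM in TBI and 21.2 ± 3.45 RPKM in control, the other 5 astrocyte markers summed lower in TBI, to 340 to 349 RPKM, against 382 to 406 RPKM in control. Without the most abundant marker of each list, chosen after the values had been seen, no other list's order turned. Endothelial markers summed to 55.7 to 59.6 RPKM in TBI and 45.7 to 51.7 RPKM in control (2 of 6 higher, 1 lower). Oligodendrocyte markers summed to 694 to 1100 RPKM in TBI and 568 to 1015 RPKM in control (1 of 8 higher, 0 lower). No marker in the table was at 0 in all libraries, and all these calls are from edgeR. The part of cell composition in the Cdc42, Rtn4 and Pde4b values was not tested.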

How the data were processed

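RNA from 6 cortex libraries (3 TBI, 3 control) was copied to cDNA with a dUTP-marked strand, per the labels' protocols. The submitters' processing notes name TopHat2 and mm10. Which program counted the reads, with what strand setting and which annotation, is not given in the sources used here. The authors deposited read counts and RPKM values per gene and per transcript for each library, per the file headers. RPKM was count over row length and column total.

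Counts were tested with edgeR 4.0.16 in R 4.3.3 (quasi-likelihood F test, filterByExpr with minimum count 10 and total 15, TMM, Benjamini-Hochberg over all rows, threshold 0.05). For isoform usage, limma 3.58.1 (diffSplice) was run on log2(RPKM + 1), keeping transcripts whose mean RPKM reached 0.5. Isoform ratios used RPKM with a pseudocount of 0.1. Segment reads were solved from overlapping rows, a step added after the rows had been seen, and scaled by TMM library sizes. DESeq2 1.42.0, another filter, other scalings and leaving out libraries were tried as alternatives.

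The members and lists were chosen with earlier results of these data known. Named genes are all member transcripts, up to 4 called genes per list with the largest change and at least 1 RPKM in the higher group, and the 3 rows most like each member. In the lists, Pirb is counted under its older symbol Lilrb3, Lnpk, Adgre1 and Ly6g were not matched by current symbol and not used here, and Camp was too low to test.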

Additional observations from a re-analysis of the deposited data

How the results depend on the processing

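The log2 fold changes of the 12 member transcripts kept their values within the spread between replicates under all 10 alternatives, and the isoform ratios under all 8. In each case 6 of the alternatives leave out a single library. Leaving out 1 of 3 libraries cannot move an isoform ratio past that spread, so for the ratios these 6 could not fail. For the fold changes, which were refitted, they are a weak check for the same reason. Without a single library the isoform log2 ratio difference ranged from 0.46 to 0.50 for Cdc42, 0.36 to 0.44 for Rtn4 and 0.49 to 0.54 for Pde4b. The segment ratios, added after the data had been seen, ranged from 0.84 to 0.93, 1.07 to 1.32 and 0.48 to 0.54. Isoform usage calls numbered 5, with 3 by diffSpliceDGE on counts and 3 to 4 without a single library. Nogo pathway calls numbered 8, and 5 to 13 without a single library. Gene row calls numbered 7476, and 5430 to 7902 without a single library. Libraries with the same number correlated at 0.054, 0.055 and 0.049 after group means were removed, and each correlated best with its own number. That is under 0.1, and the main fits did not take the numbers as pairs. A small correlation does not show that the libraries were unpaired, and a batch shared by the same number was not tested. With a replicate block 8259 gene rows, 10599 transcript rows (9778 without), 6 genes for usage and 17, 11 and 25 genes of the cAMP, Nogo and Cdc42 lists were called. The 6 for usage did not include Cdc42, which was among the 5 without the block. Scaling by column total shifted log2 changes of all rows by 0.08. Segments under about 100 reads, the first exons of Rtn4 NM_194051 and Pde4b NM_001177982 and exon 2 of Rtn4, are limited by depth.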

Other observations

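Other genes with 2 transcript rows also changed their proportions, and these were picked after their values had been seen. The M2 transcript of Pkm, pyruvate kinase, NM_011099, had 6.22 ± 0.147 RPM of reads of its own in TBI and 2.90 ± 0.415 RPM in control, while the M1 transcript NM_001253883 had 23.8 ± 3.17 RPM in TBI and 26.2 ± 2.06 RPM in control. Of Ntrk2, the BDNF receptor, NM_001025074 had 95.0 ± 14.4 RPM in TBI and 159.7 ± 11.6 RPM in control, while NM_008745 had 73.5 ± 7.32 RPM in TBI and 66.5 ± 2.61 RPM in control. Of Cacnb4, a calcium channel subunit, NM_001037099 had 2.14 ± 0.561 RPM in TBI and 4.91 ± 1.61 RPM in control, while NM_146123 had 2.77 ± 0.314 RPM in TBI and 1.97 ± 0.124 RPM in control. No test was made of these differences.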
